A study of Gallus gallus with 6 samples.

Results

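The striated muscle miRNAs of the chicken (Gallus gallus) were followed in small RNA sequencing of broiler abdominal fat. They were taken by name, as every row of miR-1 and miR-133 (forms a to c), miR-206, miR-208b and miR-499, with both arms of each hairpin. The rule found 9 mature miRNAs among the 667 in the table, namely gga-miR-133a-3p, gga-miR-133b, gga-miR-133c-3p, gga-miR-1a-3p, both arms of gga-miR-1b, gga-miR-206 and both arms of gga-miR-499, where gga stands for chicken and is left out in what follows. No row matched miR-208b or miR-1c. The table holds 6 libraries of day 35 abdominal fat, 3 from birds given 50 IU vitamin E and 3 from controls. In the feeding study, 240 female chicks received DL-α-tocopherol acetate, an ester of vitamin E, at levels of 0, 20, 50, 75 or 100 IU. The dose given to the control birds is not printed on their labels, and the breed line and any pooling of birds were not given in the sources used here. No label states that each library is a different bird, so every p-value below reflects only how far these libraries lie apart, which may be technical.

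In vertebrates these miRNAs are made mainly in heart and skeletal muscle, where they are switched on by muscle transcription factors. In mouse, miR-1 and miR-206 promote the differentiation of myoblasts while miR-133 favours their proliferation, although miR-1 and miR-133 come from shared precursor transcripts. The miR-499 gene sits inside a myosin heavy chain gene and is linked to slow and cardiac fibres. In mouse fat, miR-133 is known for holding back the brown fat programme by repressing Prdm16. In the chicken gene table of assembly GRCg7b, a miR-1a gene lies within 20 kb of each miR-133a gene, and so do miR-206 of miR-133b and miR-1b of miR-133c. The chicken miR-499 gene lies inside MYH7B, a myosin heavy chain gene.

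Total counts per library lay between 5844435 and 7062595 in the vitamin E group and between 5028671 and 7357204 in the control group. The members made up 0.0278% to 0.0612% of these counts, and 276 to 583 counts per 1000000 (CPM, on library sizes scaled by TMM, a factor that offsets composition). Their sum was 438 ± 142 CPM for the vitamin E group and 398 ± 121 for the controls (SD, n = 3). In bulk tissue, a larger number of cells of a type and more RNA per cell cannot be told apart. miR-133a-3p alone supplied 77.8% to 91.4% of the members' counts in a library, so the sum mostly followed this 1 miRNA. One read spans a mature miRNA, so CPM values are compared between members without a length term.

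miR-133a-3p, the main muscle form of the miR-133 family, ranked 73rd by mean CPM among all 667 rows. It stood at 241, 515 and 335 CPM in vitamin E libraries 1 to 3 and at 460, 227 and 364 CPM in control libraries 1 to 3. The groups overlapped, with the highest library in the vitamin E group and the lowest in control. The means were 363 ± 140 and 351 ± 117 CPM (SD, n = 3), and the log2 fold change of vitamin E over control was 0.05 (standard error, SE, 0.38; 95% interval -0.81 to 0.92). Its adjusted p was 0.962 (edgeR quasi-likelihood, Benjamini-Hochberg over the 238 miRNAs tested). Its sign followed single libraries, at -0.31 without vitamin E 2 and -0.17 without control 2, and it was just below 0 with other scalings, at -0.0012 with median-of-ratios and -0.032 with upper-quartile factors.

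miR-133c-3p, from the miR-133 gene beside miR-1b, was over 10 times rarer. It stood at 18.1, 27.8 and 24.7 CPM with vitamin E and at 12.0, 11.1 and 15 CPM in control. Every vitamin E library lay above every control library. The means were 23.5 ± 4.98 and 12.7 ± 2.04 CPM (SD, n = 3), with a log2 fold change of 0.89 (SE 0.39, 95% interval -0.02 to 1.79). The adjusted p was 0.605 (edgeR quasi-likelihood, Benjamini-Hochberg), short of the threshold of 0.05.

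miR-133b, from the gene beside miR-206, had the largest fitted difference among the tested members. It was counted 23, 50 and 45 times with vitamin E and 4, 11 and 21 times in control, which is 3.89, 6.75 and 7.0 against 0.70, 2.18 and 2.76 CPM. The groups again did not overlap, and control 1 was the lowest by a wide margin. The 4 counts of control 1 have an exact 95% Poisson interval of 1.09 to 10.2, which covers counting error only. The means were 5.88 ± 1.73 and 1.88 ± 1.06 CPM (SD, n = 3), a 3.13-fold difference, and its log2 fold change came to 1.63 (SE 0.58, 95% interval 0.30 to 2.95). This gave the 11th smallest p of 238 (0.0221 unadjusted) and did not pass after adjustment (edgeR quasi-likelihood, Benjamini-Hochberg adjusted p = 0.474). Without control 1 its log2 fold change was 1.16.

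The miR-133 forms have alike sequences. With the counting rule for reads that match more than one form not given in the sources used here, miR-133b and miR-133c-3p are reported as uncertain. Rows of miR-219a and miR-219b had the same count in every library (10917 in vitamin E 1), so reads may be counted in more than 1 row. Reads shared by miR-133 forms would then enter the following sum more than once. With the 3 forms summed into 1 row, the family reached 393 ± 146 CPM in the vitamin E group and 365 ± 115 in the controls (SD, n = 3). The log2 fold change of that row was 0.11 (SE 0.37; edgeR quasi-likelihood, Benjamini-Hochberg adjusted p = 0.902). Most of this total is miR-133a-3p.

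**Figure D1:**
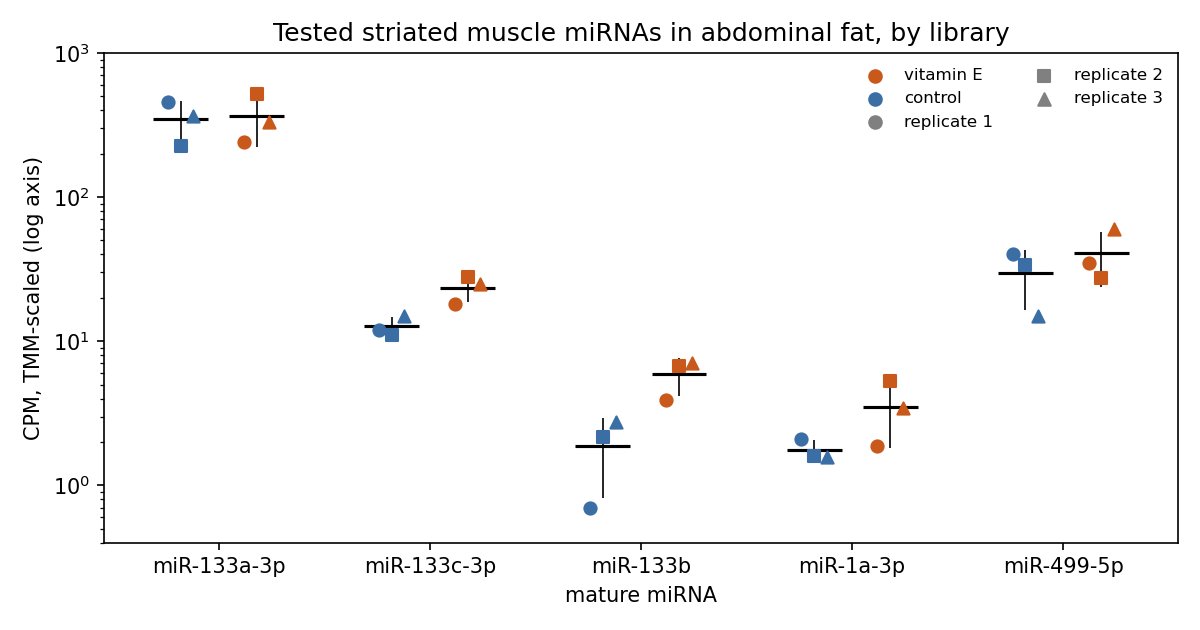
CPM on TMM-scaled library sizes (log axis) of the 5 tested members, by library, with 3 libraries per group. Bars are the group mean and vertical lines the SD; the marker shape gives the replicate number. The groups are apart for miR-133c-3p (18.1 to 27.8 against 11.1 to 15 CPM) and miR-133b (3.89 to 7.0 against 0.70 to 2.76 CPM) and overlap for the other 3.

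Among the miR-1 type members, miR-1a-3p, usually one of the most abundant miRNAs of muscle, was close to the lower limit of what was tested. It was counted 11, 39 and 22 times with vitamin E and 12, 8 and 12 times in control, or 1.86, 5.26 and 3.42 against 2.09, 1.58 and 1.58 CPM. Vitamin E 1 lay inside the control range, and the difference came from vitamin E 2 and 3. The means were 3.52 ± 1.70 and 1.75 ± 0.29 CPM (SD, n = 3). Its log2 fold change came to 1.01 (SE 0.51, 95% interval -0.16 to 2.17; edgeR quasi-likelihood, Benjamini-Hochberg adjusted p = 0.631). Without vitamin E 2 it was 0.58. On the authors' deposited TPM, which scale by library totals alone, the groups did not overlap, since control 1 has the lowest TMM factor (0.860) and its CPM is higher for it.

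miR-206, the member most restricted to skeletal muscle in mammals, had 1 count in each of vitamin E 2, vitamin E 3 and control 1, and 0 in the other libraries. miR-1b-3p had 2 counts in vitamin E 1 and 1 in control 2, and miR-1b-5p 1 count in control 3. All these values are at or under the floor of 3 counts per library, which equals 0.395 to 0.594 CPM, so no difference between the groups was detectable for them at this depth. Of the muscle markers, miR-206 and miR-1b were therefore near 0 in abdominal fat, while miR-133a-3p was well measured.

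miR-499-5p, the dominant arm of the hairpin inside MYH7B, was the second most abundant member. It stood at 34.8, 27.3 and 59.8 CPM with vitamin E and 40.4, 33.9 and 14.9 CPM in control. The groups overlapped, with vitamin E 3 the highest library and control 3 the lowest. The means were 40.6 ± 17 and 29.7 ± 13.3 CPM (SD, n = 3), and its log2 fold change came to 0.45 (SE 0.50, 95% interval -0.69 to 1.59; edgeR quasi-likelihood, Benjamini-Hochberg adjusted p = 0.842). Without vitamin E 3 it was 0.0028. The opposite arm, miR-499-3p, was counted 6, 6 and 3 times with vitamin E and 12, 2 and 1 times in control. It made up 0.775% to 4.92% of the counts of the hairpin in a library, and the exact (Clopper-Pearson) 95% interval at the upper end, in control 1, ran from 2.57% to 8.43%.

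Of the 9 members, 5 passed the filter on low counts, and 0 of these passed the threshold in either direction, where 1 of the 238 miRNAs tested did so (0.42%). At an unadjusted p under 0.05 there was 1 member, miR-133b, against 5.04% of all miRNAs on the higher side. DESeq2 counted 2 members at that unadjusted level, miR-133b and miR-133c-3p, against 5.88% of all miRNAs on the higher side. limma-voom counted 1, miR-133b, against 5.46%, and both tools gave 0 members after adjustment. Fitted log2 fold changes were above 0 for 5 of 5 tested members, against 45.8% of all miRNAs tested. The median was 0.89 over the members and -0.07 over all. The groups did not overlap in the higher direction for 2 of the 5, against 8.82% of all miRNAs. On the authors' deposited TPM this count was 3 of 5, against 10.9%. These are descriptions of a list chosen with earlier results of the data known. The tested members are not independent of each other, since genes of miR-133a and miR-1a are adjacent and the miR-133 forms may share reads. For 4 of 5 members the sign held in each of the 15 to 17 alternative fits that included them. For miR-499-5p it held only at 0.0028 without vitamin E 3. miR-133a-3p was above 0 in 10 of 16 fits and below in 6. All these fits reuse the same libraries, so a sign that holds is not separate support. For miR-133b and miR-133c-3p, whose groups do not overlap, leaving out 1 library could hardly turn it. The share of all miRNAs whose sign held was not counted.

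**Figure D2:**
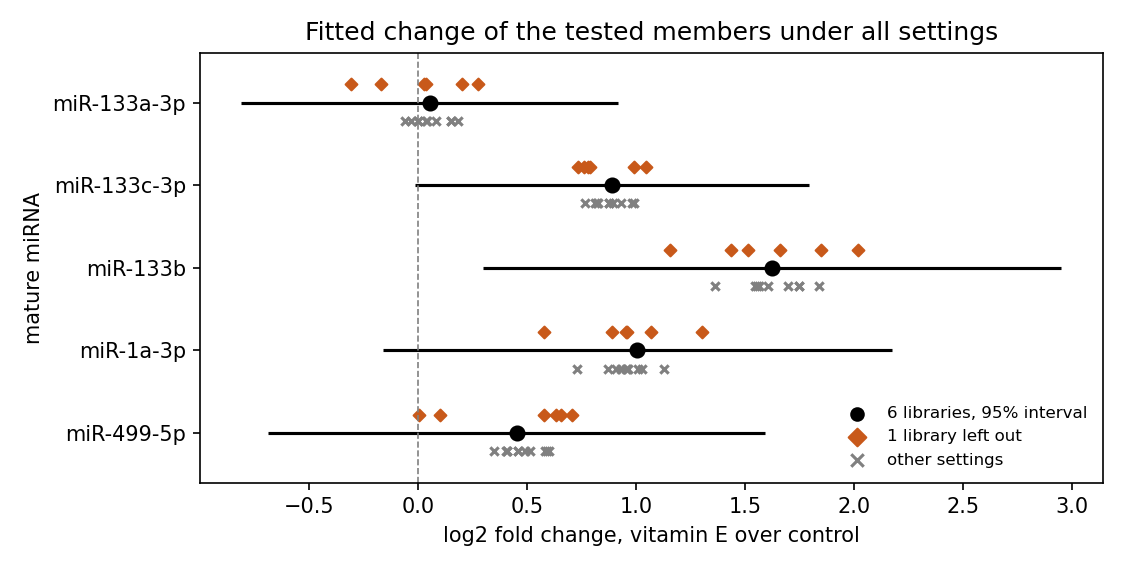
Log2 fold change (vitamin E over control) of the 5 tested members. Black points and lines are the fit on 6 libraries with its 95% interval, diamonds the fits with 1 library left out, and crosses the other settings. The interval of miR-133b (0.30 to 2.95, before any adjustment) lies above 0, and the points of miR-133a-3p fall on both sides of 0.

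The fitted differences were ordered inversely to abundance within the miR-133 family, at 0.05 for miR-133a-3p, 0.89 for miR-133c-3p and 1.63 for miR-133b. The biological coefficient of variation is the edgeR estimate of the spread between libraries of a group beyond counting error. Each estimate is drawn towards the values of miRNAs of like abundance. It was 0.385, 0.388 and 0.474 for the 3 miR-133 forms in the same order. It was 0.445 for miR-1a-3p and 0.477 for miR-499-5p, and the median over all miRNAs tested was 0.408. The members thus lay on both sides of the median miRNA in this estimate, which depends in part on abundance.

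**Figure D3:**
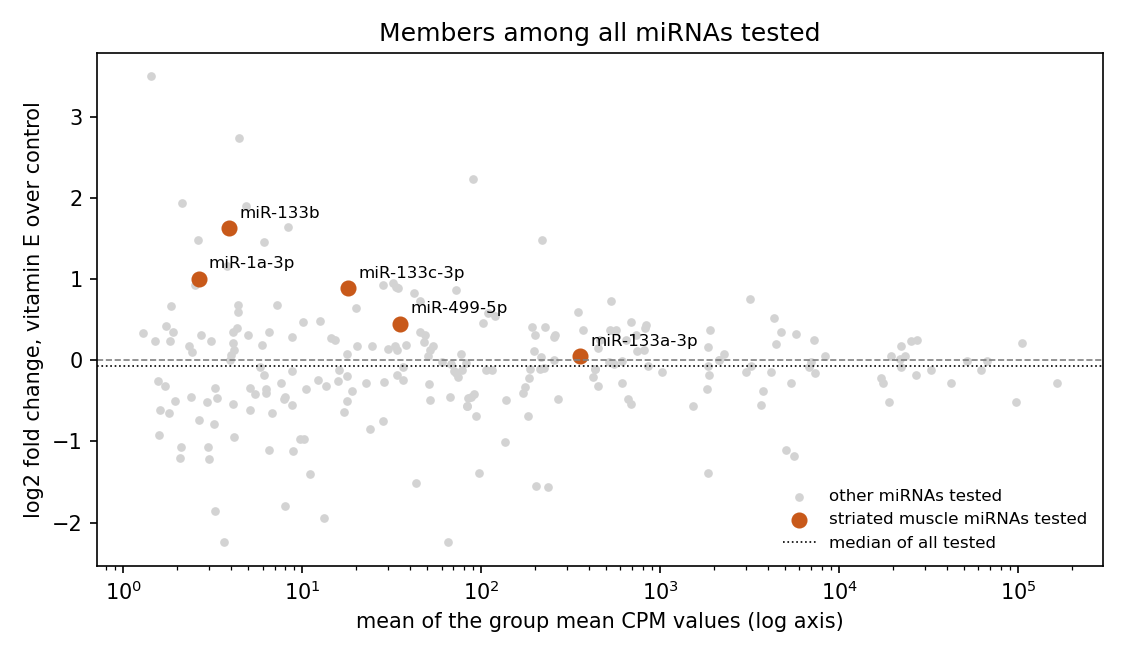
Log2 fold change (vitamin E over control) against mean CPM (log axis) for the 238 miRNAs tested, with the 5 tested members marked. The dotted line is the median of all tested (-0.07); the members lie at or above 0, and the rarest pair, miR-133b and miR-1a-3p, are at 1.63 and 1.01.

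Within each neighbouring gene pair, the miR-133 form was far more abundant in summed counts than its miR-1 type partner. Summed over the 6 libraries, miR-133a-3p had 13949 counts and miR-1a-3p 104, a ratio of 134 (exact 95% counting interval 111 to 164). By library this ratio ran from 97.7 to 231. miR-133c-3p had 711 counts and miR-1b-3p 3, a ratio of 237 (81 to 1152), and miR-133b had 154 counts and miR-206 3, a ratio of 51.3 (17.2 to 252). The miR-133 form was the higher one in 6 of 6 libraries for all 3 pairs. In libraries where the partner was counted, the ratio ran from 53.5 to 56 for miR-133c-3p and from 4 to 50 for miR-133b. The ratio of 4, in control 1, rests on 4 counts of miR-133b against 1 of miR-206. Reads shared with miR-133a-3p may enter the counts of miR-133c-3p and miR-133b. How much of the 711 and 154 counts comes from their own genes was not tested, so their ratios are uncertain. The intervals cover counting error only, and the efficiency with which each miRNA is captured in a library was not measured.

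Ratios to miR-133a-3p of the same library do not depend on scaling. Reads shared with miR-133a-3p may enter the counts of miR-133c-3p and miR-133b, so the ratios of these forms are uncertain. For every 100 counts of miR-133a-3p, miR-133c-3p had 7.51, 5.40 and 7.40 counts with vitamin E, against 2.61, 4.88 and 4.12 in control. miR-133b had 1.62, 1.31 and 2.09 against 0.151, 0.959 and 0.758, and miR-1a-3p had 0.772, 1.02 and 1.02 against 0.454, 0.697 and 0.433. For these 3 members every vitamin E library lay above every control library. miR-499-5p, at 14.5, 5.29 and 17.9 against 8.78, 14.9 and 4.08, overlapped between the groups.

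The mean log2 ratio to miR-133a-3p was higher with vitamin E by 0.84 for miR-133c-3p, 1.71 for miR-133b and 0.82 for miR-1a-3p. Each had an exact permutation p of 0.1 (two-sided, 20 relabellings), the smallest that 3 against 3 libraries allow, and 0.133 after Benjamini-Hochberg adjustment over 4 ratios. For miR-499-5p the difference was 0.45 (exact permutation p = 0.6, adjusted 0.6). The design cannot reach 0.05. Non-overlap in the higher direction was seen for 3 of 4 members. The share was 4.64% over the 237 miRNAs tested other than miR-133a-3p, these members included, when each was divided by miR-133a-3p. The 4 ratios share a denominator, and those of miR-133b and miR-1a-3p, which fall under 10 counts in a library, were added after their values had been seen. Without control 1 the difference for miR-133b was 0.92.

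**Figure D4:**
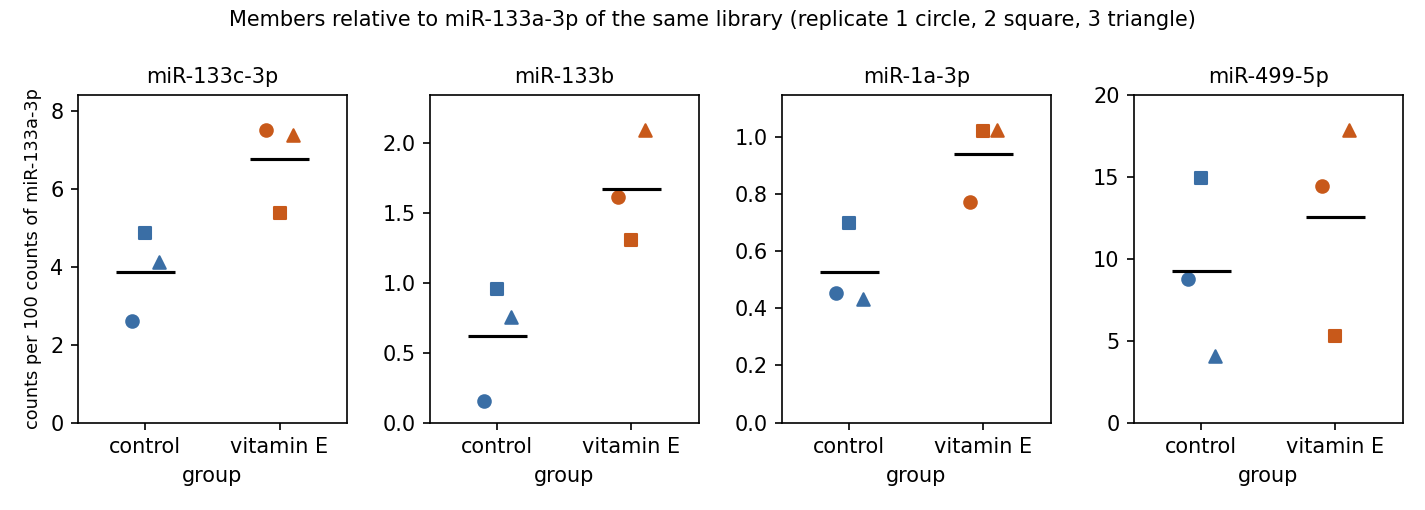
Counts of each member per 100 counts of miR-133a-3p in the same library (linear axes from 0, 1 panel per miRNA, 3 libraries per group; bars are means). The groups are apart for miR-133c-3p (5.40 to 7.51 against 2.61 to 4.88), miR-133b and miR-1a-3p, and overlap for miR-499-5p. Counts of miR-133c-3p and miR-133b may hold reads shared with miR-133a-3p.

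The members did not share 1 profile over the libraries. Likeness was measured as the root-mean-square (RMS) difference of log2 CPM after each miRNA was centred on its own mean over the 6 libraries, so that smaller values mean more alike. The closest pair of members was miR-133c-3p with miR-1a-3p, at 0.29. miR-133a-3p was at 0.45 from miR-1a-3p and 0.52 from miR-133c-3p, and miR-133b at 0.59 from miR-133c-3p. miR-499-5p was at 0.70 to 1.10 from the other members, and miR-133b and miR-133a-3p were at 1.08 from each other.

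Among the miRNAs outside the set, the closest to miR-133c-3p were miR-200b-3p, at an RMS difference of 0.098, miR-200a-3p at 0.20 and miR-1329-5p at 0.22. miR-200a and miR-200b are known from epithelial cells. miR-200b-3p stood at 79.6, 110 and 91.5 CPM with vitamin E and at 47.9, 49.5 and 56.8 CPM in control, without overlap. It was picked for its likeness to miR-133c-3p, whose groups are also apart, so this is not a separate observation. Over all miRNAs tested, 8.82% were higher with vitamin E without overlap. For miR-1a-3p the closest were miR-1329-5p at 0.25, miR-200b-3p at 0.32 and miR-20a-3p at 0.41. For miR-133b they were miR-429-3p at 0.49, miR-200b-5p at 0.53 and miR-460a-3p at 0.53, with miR-429 again of the epithelial miR-200 family. The epithelial list named miR-200a, miR-200b, miR-141, miR-429, miR-203, miR-205a and miR-205b, of which miR-141 and miR-203 matched no row by name. The lettered miR-203a was therefore not counted, and it had a log2 fold change of 0.59 (edgeR quasi-likelihood, adjusted p = 0.824). Of the 7 rows of the list that were tested, 5 were fitted higher and 2 lower, 0 passed (edgeR, Benjamini-Hochberg), and the summed level was 320 to 393 CPM with vitamin E and 312 to 428 in control. That list was led by miR-200a-3p (log2 fold change 0.54), and its smallest p belonged to miR-205b (-2.24). The part of epithelial cells in the values of the miR-133 forms was not tested.

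miR-499-5p had other neighbours. Its profile was closest to miR-451, a miRNA matured in red cell precursors, at an RMS difference of 0.21, then to miR-2188-5p at 0.25 and miR-34a-3p at 0.28. miR-451 stood at 3838, 2983 and 5079 CPM with vitamin E and at 3032, 2729 and 1289 CPM in control, so that vitamin E 3 was the highest and control 3 the lowest library, as for miR-499-5p. Since miR-451 was picked for its likeness to miR-499-5p, this is not a separate observation. The red cell list had 3 tested rows, of which 1 was fitted higher (miR-451, log2 fold change 0.76), 2 lower and 0 passed. It summed to 3099 to 5294 CPM against 1405 to 3283, and most of this sum was miR-451. The part of red cells in the values of miR-499-5p was not tested. For miR-133a-3p the closest were miR-1552-3p at 0.25, miR-6615-5p at 0.26 and miR-10b-5p at 0.29. All 6 libraries enter each of these values, which are descriptions with no test.

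**Figure D5:**
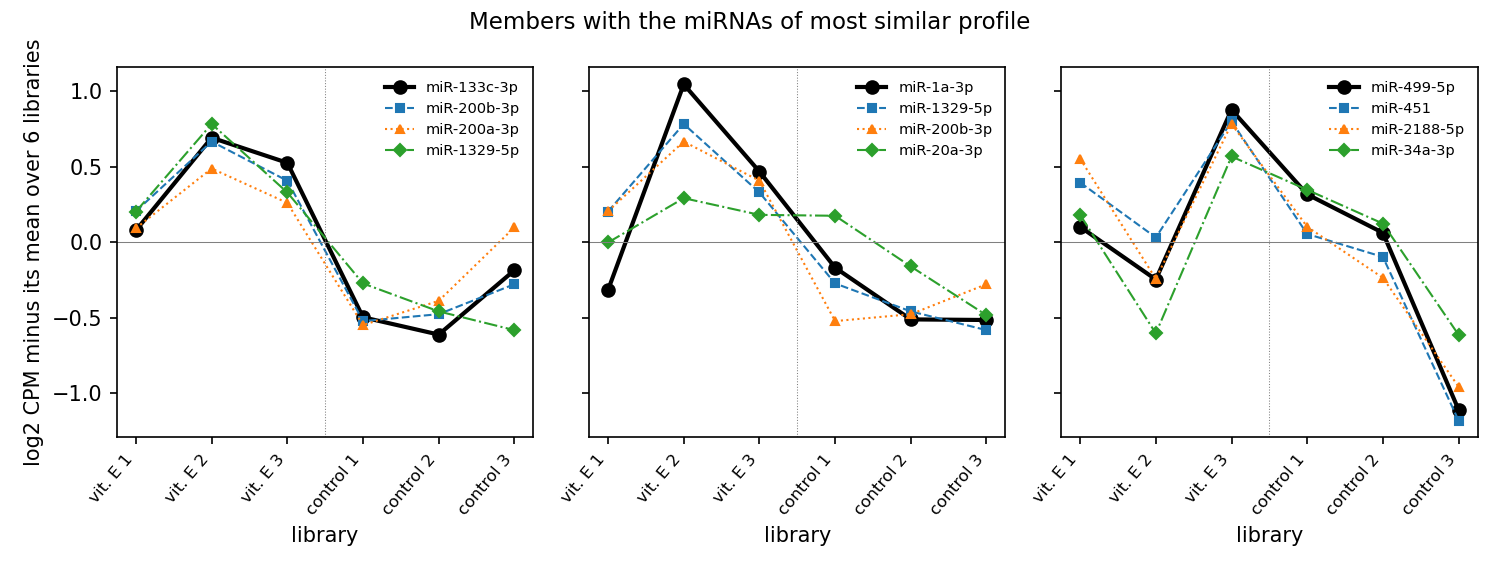
Log2 CPM minus its mean over the 6 libraries, by library, for miR-133c-3p, miR-1a-3p and miR-499-5p (black), each with its 3 closest miRNAs outside the set. Lines join libraries for reading only, since libraries have no order. miR-133c-3p runs with miR-200b-3p (RMS difference 0.098), and miR-499-5p with miR-451 (0.21).

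miRNAs studied in muscle formation but also made in many other tissues formed a list of 23 names, 16 of which matched rows by name. Lettered forms of the listed miR-222 and miR-203 were therefore not counted. Their tested rows were miR-222a, miR-222b-3p and miR-203a, with log2 fold changes of -1.39, 0.40 and 0.59, and did not pass. Of 24 tested rows, 10 were fitted higher and 14 lower, 0 passed in either direction, and the median log2 fold change was -0.07, equal to that of all miRNAs at this precision. The most abundant was miR-26a-5p, which in mouse promotes myoblast differentiation and here led the whole table, at 148889 ± 8628 CPM in the vitamin E group and 180256 ± 25646 in the controls (SD, n = 3; log2 fold change -0.28). The smallest p belonged to miR-128-3p (log2 fold change -1.18, SE 0.47, edgeR quasi-likelihood, Benjamini-Hochberg adjusted p = 0.504). Rows of miR-29a-3p and miR-29c-3p, both fitted lower, had nearly the same count in every library (2411 and 2419 in vitamin E 1). The count of 14 lower rows and the median may thus hold the same reads more than once.

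No miRNA defines fat cells alone, so the tissue label was set beside miRNAs studied in fat cells. These summed to 46168 to 68152 CPM with vitamin E and 41927 to 68186 in control, led by miR-148a-3p. Of 6 tested rows 3 were fitted higher and 3 lower and 0 passed, with the smallest p for miR-193b-3p (log2 fold change 1.48, adjusted p = 0.138 in edgeR). Endothelial miR-126 summed to 20879 to 29955 against 24416 to 35488 CPM over its arms, with 1 tested row, miR-126-3p, that did not pass (log2 fold change -0.18), and 4 tested leukocyte miRNAs to 6481 to 8937 against 5470 to 10782. Of the leukocyte rows 3 were fitted higher and 1 lower, and 0 passed; miR-142-5p led in abundance (-0.03 on the log2 scale) and miR-223 had the smallest p (0.37 on that scale). Liver-restricted miR-122 summed to 5.24 to 7.31 CPM with vitamin E and 12.4 to 20.8 in control, without overlap, and did not pass (edgeR adjusted p = 0.325 for miR-122-5p). Of all 238 miRNAs tested, 12 lay lower with vitamin E without overlap, miR-122-5p among them. The nervous system list named miR-9 and miR-124, of which only miR-9 matched rows by name. It summed to 150 to 166 against 26.9 to 43.8 CPM, and held the 1 miRNA that passed, miR-9-5p (edgeR quasi-likelihood, Benjamini-Hochberg adjusted p = 0.0396). The lettered miR-124a-3p and miR-124c-5p were therefore not counted. Their log2 fold changes were 1.45 and 1.94 (edgeR quasi-likelihood, Benjamini-Hochberg adjusted p = 0.277 and 0.189). The smooth muscle miRNAs miR-143 and miR-145 matched no row and were not analysed here.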

How the data were processed

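One table of 667 mature miRNAs in 6 libraries was used. Per the file headers, the authors deposited read counts and TPM; the counts are whole numbers, and each TPM equals the count divided by the library total times 1000000, without a length term. Aligner, counting rule and build were not given in the sources used here. Counts were fitted with edgeR 4.0.16 in R 4.3.3 (TMM factors, filterByExpr by group at 10 counts and 15 in total, robust quasi-likelihood F test), with Benjamini-Hochberg adjustment over the 238 miRNAs tested and a threshold of 0.05. Likeness used log2 CPM with a prior count of 2; ratios with under 10 counts used a pseudocount of 0.5. Alternatives used DESeq2 1.42.0 and limma 3.58.1 (17 alternative fits in all).

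The members and lists were chosen with earlier results of these data known. Named singly were all members, the 3 miRNAs closest in profile to each tested member, and for each list the most abundant row and that with the smallest p. Intervals have a level of 95%. Those of log2 fold changes, and the SE values, were derived from the F statistic of the edgeR fit. These intervals are symmetric about the log2 fold change and include the spread between libraries. Those of counts, shares and ratios of counts cover counting error only, since no molecular identifiers mark single molecules. No mature sequences were at hand, so none are printed. Positions in assembly GRCg7b are not printed, since the build of the table is unknown. No pair of libraries agreed within sampling noise (chi-square per degree of freedom at least 346).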

Additional observations from a re-analysis of the deposited data

How the results depend on the processing

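Over the 17 alternative fits, 0 striated muscle miRNAs passed the adjusted threshold of 0.05 in any, as in the reported one (lowest Benjamini-Hochberg adjusted p 0.286, for miR-133b). The count over all miRNAs was 1 as reported, 0 with upper-quartile factors, 8 with no filter, 7 with DESeq2, 3 with limma on log2(TPM + 1) and 0 to 1 when 1 library was left out; the cause was not tested. Libraries of both groups carry numbers 1 to 3, and deviations of equal numbers correlated at -0.16, 0.046 and -0.020. Unlike numbers were not compared, so these values cannot show whether the numbers pair libraries. With the replicate block 5 miRNAs passed, 0 of them members. The log2 fold change of miR-133a-3p turned to -0.0012 with median-of-ratios factors and with DESeq2, -0.032 with upper-quartile factors, -0.059 with the filter of 10 CPM in 3 libraries, -0.31 without vitamin E 2 and -0.17 without control 2 (range with 1 library left out -0.31 to 0.27). Library totals alone shifted all log2 fold changes by a median of 0.11, and limma on log2(TPM + 1) and log2(TPM + 0.1) by 0.13; relative to these shifts miR-133a-3p stood at 0.077, 0.020 and 0.017. The difference in log2 ratio of miR-499-5p to miR-133a-3p ran from -0.044 (without control 3) to 0.99 when 1 library was left out. Those of the other members kept their sign, at 0.58 to 1.03 for miR-133c-3p, 0.92 to 2.20 for miR-133b and 0.69 to 1.05 for miR-1a-3p. The groups do not overlap in these ratios, so leaving out 1 library could not turn the sign. A pseudocount of 0.5 left the 2 planned ratios at 0.83 and 0.45. Depth limits miR-206 and both arms of miR-1b, each with at most 3 counts in all.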
